A study of Mus musculus with 4 samples.

Results

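The aryl hydrocarbon receptor (AhR) pathway was described through 8 named genes, out of 23521 genes in the series. The members were listed by name, with earlier results of these data known: the receptor Ahr, its partner Arnt, the repressor Ahrr, the cytochrome P450 genes Cyp1a1, Cyp1a2 and Cyp1b1, the ADP-ribosyltransferase Tiparp and the aldehyde dehydrogenase Aldh3a1. All 8 were found in the expression table, and 4 of them reached the mean of 1 RPKM (reads scaled to transcript length and to library size) needed for the test. The study profiled polyadenylated RNA of the mouse hepatoma line Hepa1-6 in 4 libraries. The Chd1KD cells (n = 2 libraries) carried a lentiviral shRNA against Chd1, an ATP-dependent chromatin remodeler, and the Control cells (n = 2 libraries, genotype given as wild type) carried a scrambled shRNA. Both groups were grown in DMEM with fetal bovine serum and selected with puromycin (4 μg/ml) over 3 weeks, and no AhR ligand is named in the labels. All 4 libraries derive from 1 cell line, and the labels leave unsaid whether the replicates are separate transductions; the p-values therefore rest on a spread between libraries that may be technical.

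AhR is a ligand-activated transcription factor of the bHLH-PAS family. Without ligand it is held in the cytosol by HSP90 and its co-chaperones; on binding a planar aromatic compound such as dioxin or a tryptophan photoproduct it enters the nucleus, pairs with ARNT and binds DNA at the xenobiotic response element, whose core is GCGTG. Its best known targets in liver are the CYP1 enzymes, which oxidise the ligands themselves, and AHRR and TIPARP, which dampen the receptor.

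The targeted gene was checked first. Chd1 measured 10.4 and 11.3 RPKM in Chd1KD and 21.4 and 22.5 RPKM in Control, a log2 fold change of -0.96 (SE 0.07, limma, adjusted p = 0.012). The change passed the test, and the groups did not overlap. Summed RPKM was 459381 to 484490 per library, and sequencing depth is unknown because the files hold no counts. Of 10 hepatocyte and hepatoma markers, 7 reached a mean of 1 RPKM, while Ttr and Serpina1a were listed at 0 in every library. The marker list summed to 239.0 and 269.0 RPKM in Chd1KD and to 219.6 and 287.3 RPKM in Control, so the groups overlapped, and Alb was 18.6 RPKM in Control replicate 1 against 42.2 to 55.6 RPKM in the other libraries. Of 12 markers of other liver cells 11 were found and 9 of these stayed below the mean of 1 RPKM; Adgre1, Cd3e, Cdh5 and Acta2 were listed at 0 in every library. That list summed to 7.02 and 5.30 RPKM in Chd1KD and to 9.51 and 10.3 RPKM in Control, most of it from the epithelial genes Krt7 and Epcam. The biliary keratin Krt19, below the level tested, had 0.085 and 0 RPKM in Chd1KD and 1.13 and 1.04 RPKM in Control.

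Of the 8 members, Ahr, Arnt, Cyp1a1 and Tiparp were expressed at 8.26 to 20.3 RPKM and the other 4 lay under 0.14 RPKM in every library. The clearest separation was in Cyp1a1, which averaged 61.6% of Control in Chd1KD but did not pass the test over all genes. The receptor and its partner showed little difference. None of the 4 tested members passed (limma, adjusted p under 0.05), where 0.46% of all 10209 tested genes did (47 genes, 28 higher and 19 lower). At an unadjusted p under 0.05 the count was 1 of 4, against 18.5% of all tested genes. Groups did not overlap for 3 of the 4 (Arnt, Cyp1a1 and Tiparp, each lower in Chd1KD), against 51.8% of all tested genes in either direction and 30.5% with Chd1KD lower. The median log2 fold change was -0.10 over the 4 members, against -0.02 over all tested genes. The count of 47 genes itself became 6 without a variance trend and 92 with a robust trend (limma).

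**Figure D1:**
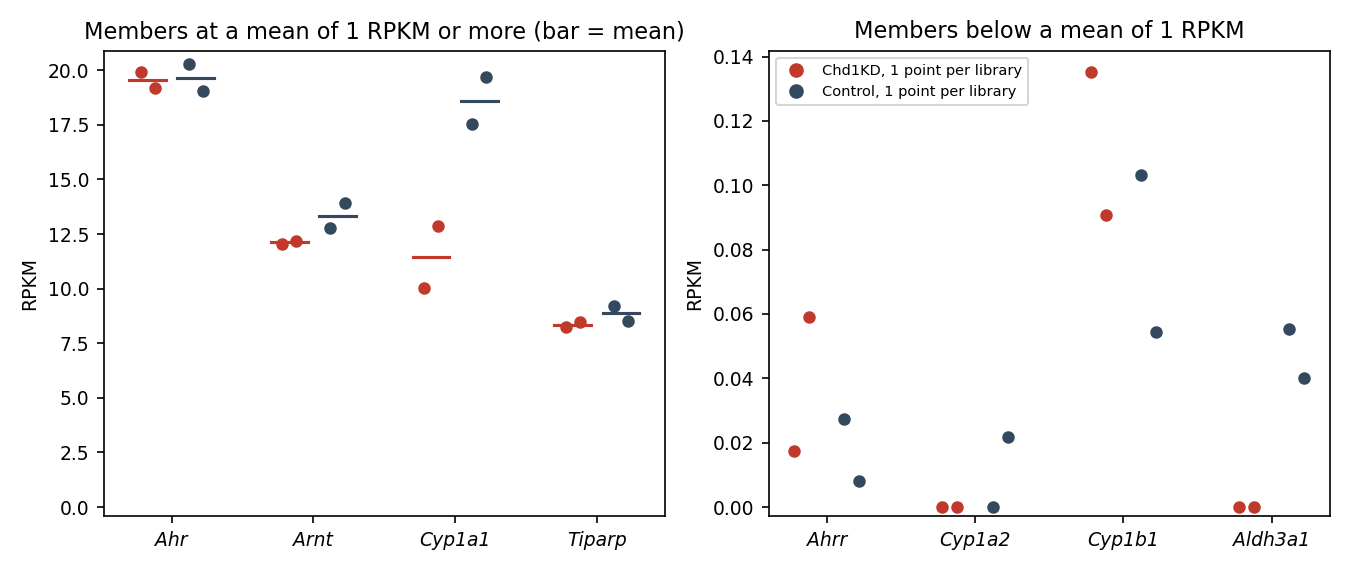
RPKM of the 8 members in each library (vertical axes, linear, on separate scales for the left and right panels), with Chd1KD left of Control; points are single libraries, replicate 1 left of replicate 2, and bars in the left panel are means of 2 libraries. Cyp1a1 sits at 10.02 and 12.9 RPKM in Chd1KD, below both Control libraries at 17.5 and 19.7 RPKM, while the Ahr libraries of both groups lie together between 19.03 and 20.3 RPKM.

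The receptor gene Ahr lies on chromosome 12 from 35497979 to 35534989 (mm10, minus strand, protein-coding). It measured 19.9 and 19.2 RPKM in Chd1KD and 20.3 and 19.03 RPKM in Control. The 2 groups overlapped and both Chd1KD values lay between the Control values. Means were 19.6 ± 0.52 RPKM in Chd1KD and 19.7 ± 0.89 RPKM in Control (SD, n = 2 each), and the log2 fold change was -0.01 (95% interval -0.16 to 0.15, limma, adjusted p = 0.97). That interval corresponds on the log2(RPKM + 1) scale to 0.895 to 1.11 times Control. The sign turned under quantile normalization (0.018), under median centring (0.0040), without Control replicate 1 (0.038) and without Chd1KD replicate 2 (0.020).

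Arnt, the bHLH-PAS partner that AhR needs to bind DNA and that also pairs with the hypoxia factors, lies on chromosome 3 from 95434367 to 95497240 (mm10, plus strand). It measured 12.1 and 12.2 RPKM in Chd1KD and 12.8 and 13.9 RPKM in Control. Both Chd1KD libraries were below both Control libraries by a small margin. The log2 fold change was -0.13 (95% interval -0.29 to 0.04, limma, adjusted p = 0.37), and -0.067 without Control replicate 2. The files list 2 Arnt transcripts, whose GENCODE models code for 2373 and 2328 nt. The longer-coding one, NM_001037737, held 92.2% and 94.1% of the Arnt RPKM in Chd1KD and 90.7% and 91.1% in Control. The minor one, NM_009709, measured 0.94 and 0.71 RPKM in Chd1KD and 1.19 and 1.24 RPKM in Control. Its groups did not overlap, and as a split of reads between overlapping transcripts it was not tested. Per unit of transcript length, Ahr was the more abundant partner in every library, at 1.65 and 1.57 times the Arnt RPKM in Chd1KD and 1.59 and 1.37 times in Control.

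Ahrr, a relative of AhR that competes for ARNT and represses the pathway, lies on chromosome 13 from 74211118 to 74292331 (mm10, minus strand). It was close to 0, at 0.017 and 0.059 RPKM in Chd1KD and 0.027 and 0.0081 RPKM in Control. The groups overlapped and no fold is given at this level.

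Cyp1a1, the aryl hydrocarbon hydroxylase that serves as the classic readout of AhR activity, lies on chromosome 9 from 57687928 to 57703824 (mm10, plus strand). It measured 10.02 and 12.9 RPKM in Chd1KD and 17.5 and 19.7 RPKM in Control. Every Chd1KD library was below every Control library, with the 4 pairwise ratios between 0.51 and 0.74. Within groups the higher library was 1.29 times the lower in Chd1KD and 1.12 times in Control, so the difference between groups was larger than either spread. Means were 11.5 ± 2.0 RPKM in Chd1KD and 18.6 ± 1.5 RPKM in Control (SD, n = 2 each), a ratio of 0.62.

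The log2 fold change of Cyp1a1 was -0.66 (SE 0.12, 95% interval -0.94 to -0.38), with an unadjusted p of 0.00089 and an adjusted p of 0.079 over all tested genes (limma), short of the threshold. Of the 10209 tested genes, 34 (Cyp1a1 included) had a log2 fold change at or below this one. Without Chd1KD replicate 2 the log2 fold change was -0.83, and without Chd1KD replicate 1 it was -0.50. Such fits leave 1 library in a group, so their spread comes from the other group alone and only their log2 fold changes are read. Over the 14 alternative settings without a replicate block the log2 fold change ran from -0.83 to -0.50. With all 4 libraries, the adjusted p was 0.059 with a mean RPKM of at least 5 and 0.26 with no filter on low values (limma). The epithelial markers given above were also lower in Chd1KD, with Krt7 at 4.56 and 3.45 RPKM in Chd1KD and 5.98 and 6.58 RPKM in Control; their part in the Cyp1a1 difference was not tested. In bulk RNA, fewer cells with a transcript and less of it per cell cannot be told apart.

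**Figure D2:**
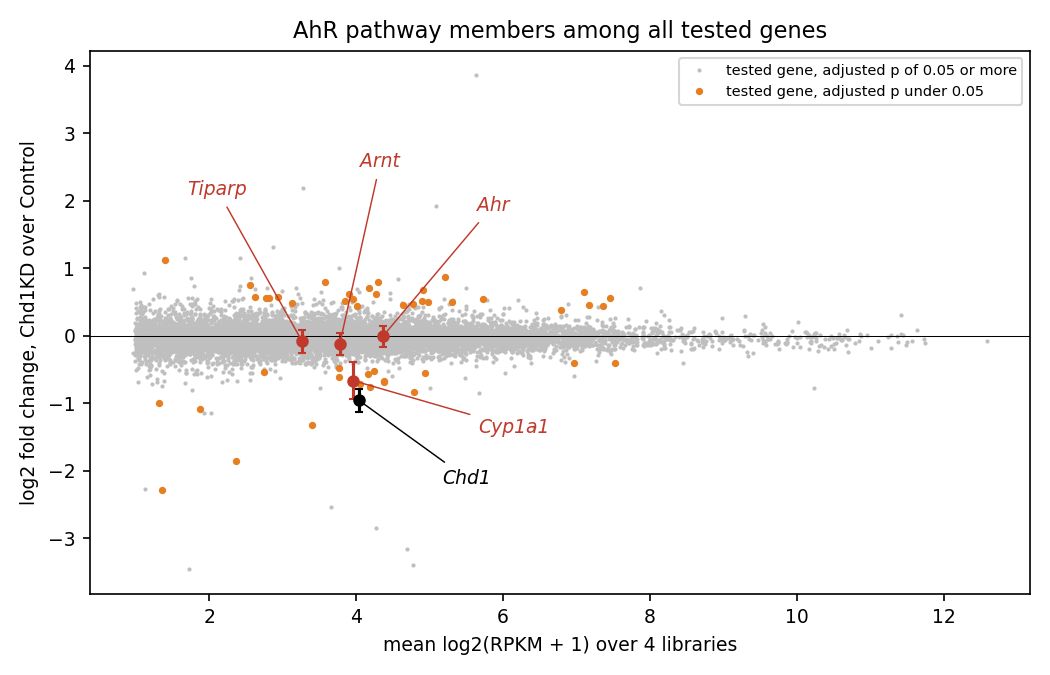
Log2 fold change (Chd1KD over Control, vertical axis) against mean log2(RPKM + 1) over 4 libraries (horizontal axis) for all 10209 tested genes, with the 4 tested members in red and Chd1 in black; bars are 95% intervals and orange points passed the test. Ahr, Arnt and Tiparp lie within the grey band of genes that did not pass, with intervals that span 0. Cyp1a1, which did not pass either, lies lower at -0.66, above Chd1 at -0.96. Grey points also lie below Cyp1a1, among them Ctsh at -0.77.

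**Figure D3:**
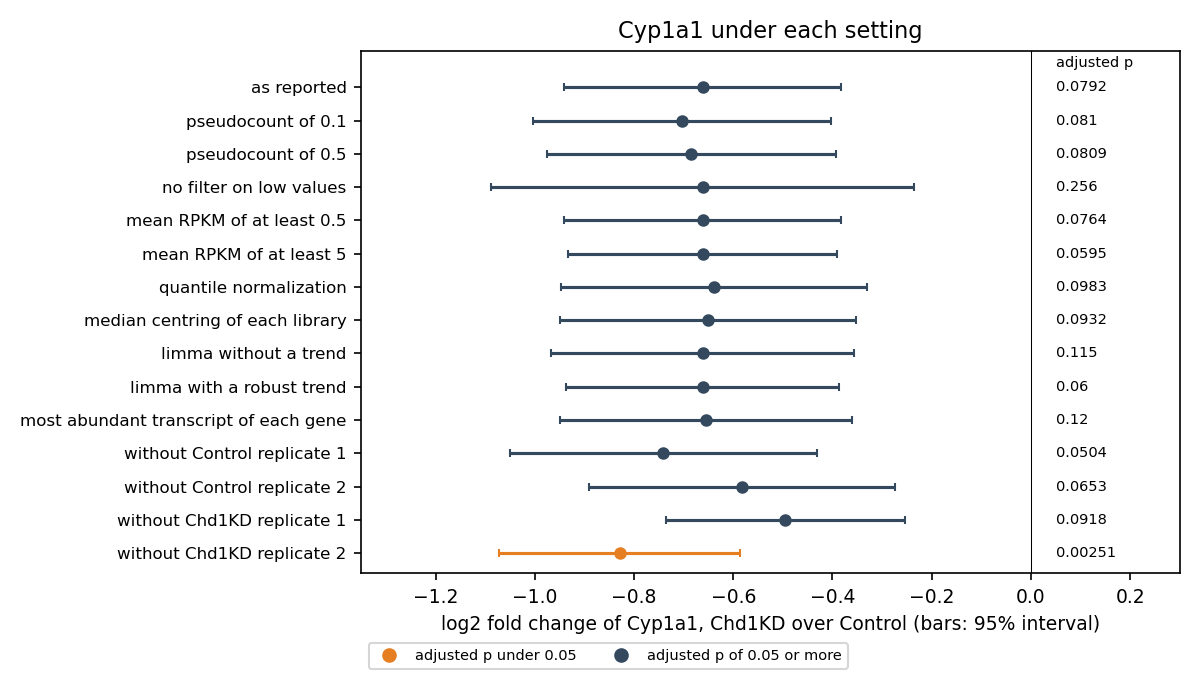
Log2 fold change of Cyp1a1 with its 95% interval (horizontal axis) as reported and under 14 other settings (rows), with the adjusted p of each at the right. The estimates lie between -0.83 and -0.50. Both Chd1KD libraries lay below both Control libraries, so leaving 1 library out could not turn the sign. The filter and variance settings leave the estimate as reported and change only its interval and adjusted p. The fit with a replicate block is not plotted. The orange row (without Chd1KD replicate 2) has an adjusted p under 0.05 from a fit with 1 Chd1KD library. Its spread comes from Control alone, so it is not read as a call. The adjusted p of the other rows with a library left out is not read either.

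Nearly all Cyp1a1 signal belonged to 1 of 2 listed transcripts. NM_001136059, whose model starts at 57697613, held 100% of the Cyp1a1 RPKM in both Chd1KD libraries and 99.8% and 99.2% in the Control libraries. NM_009992, whose model starts upstream at 57687928, was listed at 0 in both Chd1KD libraries and had 0.041 and 0.16 RPKM in Control. Both models have 7 exons and code for 1572 nt, so the transcripts differ outside the coding length.

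The promoter windows of Cyp1a1 and Tiparp, the 2 expressed target genes, and of the near-silent Ahrr are shown to set the core of the response element beside the levels. They are RefSeq sequences of GRCm38.p6 on the strand of each gene and cover the bases from -250 to -1 before the start, at chr9:57697363-57697612 (plus) for Cyp1a1, chr3:65528197-65528446 (plus) for Tiparp and chr13:74292332-74292581 (minus) for Ahrr. Capitals mark GCGTG or its reverse complement CACGC.
Cyp1a1: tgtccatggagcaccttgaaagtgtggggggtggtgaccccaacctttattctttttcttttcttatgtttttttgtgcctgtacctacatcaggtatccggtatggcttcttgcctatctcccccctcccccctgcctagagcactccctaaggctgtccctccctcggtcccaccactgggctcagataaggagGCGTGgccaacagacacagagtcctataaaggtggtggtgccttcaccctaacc
Tiparp: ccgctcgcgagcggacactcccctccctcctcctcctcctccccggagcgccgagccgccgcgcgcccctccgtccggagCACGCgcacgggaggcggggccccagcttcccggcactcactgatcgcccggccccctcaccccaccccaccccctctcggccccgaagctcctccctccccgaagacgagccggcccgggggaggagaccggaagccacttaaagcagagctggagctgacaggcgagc
Ahrr: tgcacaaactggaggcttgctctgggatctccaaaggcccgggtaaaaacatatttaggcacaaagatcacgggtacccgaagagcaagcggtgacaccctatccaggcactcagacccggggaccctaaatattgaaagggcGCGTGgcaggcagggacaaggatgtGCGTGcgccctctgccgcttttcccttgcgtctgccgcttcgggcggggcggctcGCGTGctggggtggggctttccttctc
The Cyp1a1 window, which ends at the start of the dominant transcript, held 1 core beginning at -54, the Tiparp window held 1 on the other strand beginning at -170, and the Ahrr window held 3, beginning at -107, -82 and -27. Windows were found for 6 members, and 5 of them held a core (Arnt, Ahrr, Cyp1a1, Cyp1b1 and Tiparp). On either strand 28.2% of all 32851 windows of that length held GCGTG, and 4.1% held the longer TNGCGTG, which among the members stood only in the Ahrr window and overlaps its core at -27. A match is a string of letters, not a measured binding site, and genes with the core were found at 0.0081 as well as at 19.7 RPKM. Sequence outside these windows was not searched, so the counts are not those of a whole regulatory region.

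Tiparp, which encodes the ADP-ribosyltransferase PARP7, a repressor of AhR, lies on chromosome 3 from 65528447 to 65555518 (mm10, plus strand). It measured 8.26 and 8.46 RPKM in Chd1KD and 9.22 and 8.53 RPKM in Control. The groups did not overlap, but the nearest libraries of the 2 groups differed by less than the Control libraries did from each other. The log2 fold change was -0.08 (95% interval -0.25 to 0.09, limma, adjusted p = 0.60). It was -0.026 without Control replicate 1 and -0.13 without Control replicate 2.

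The 2 targets were therefore set against each other within each library. Cyp1a1 was 1.21 and 1.52 times the Tiparp RPKM in Chd1KD and 1.90 and 2.31 times in Control. Against the receptor, Cyp1a1 was 0.50 and 0.67 times the Ahr RPKM in Chd1KD and 0.86 and 1.03 times in Control. Neither pair of groups overlapped. The two-sided exact permutation test gave p = 0.33 for each ratio, the smallest that 2 against 2 libraries allow, so it could not decide. Ahr and Tiparp differed little between groups (log2 fold change -0.01 and -0.08), so both ratios largely restate the Cyp1a1 difference.

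The other CYP1 genes and Aldh3a1 were barely detected. Cyp1a2, the main constitutive CYP1 enzyme of adult liver, lies 4272 bp from the Cyp1a1 gene span on chromosome 9, on the opposite strand (57676937 to 57683655, mm10). That gap runs to the start of the minor Cyp1a1 transcript at 57687928, and the dominant transcript starts farther away, at 57697613. Cyp1a2 was listed at 0 in both Chd1KD libraries and in Control replicate 1, and at 0.022 RPKM in Control replicate 2. Cyp1b1, an extrahepatic CYP1 enzyme, on chromosome 17 from 79706940 to 79715061 (mm10, minus strand), had 0.14 and 0.091 RPKM in Chd1KD and 0.10 and 0.054 RPKM in Control. These ranges overlapped. Aldh3a1, an aldehyde dehydrogenase of the AhR gene battery, on chromosome 11 from 61208510 to 61218418 (mm10, plus strand), was listed at 0 in both Chd1KD libraries and had 0.055 and 0.040 RPKM in Control. An exact 0 in these files need not mean absence, since 10 genes averaging 5 RPKM or more were listed at 0 in some library.

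By level, the order of the members was Ahr, Cyp1a1, Arnt and Tiparp in Control and Ahr, Arnt, Cyp1a1 and Tiparp in Chd1KD, all in RPKM. In Control the ranges of Ahr and Cyp1a1 overlapped. In Chd1KD those of Arnt and Cyp1a1 overlapped. Ahr, Arnt and Tiparp each overlap another annotated gene (an antisense long noncoding RNA for Ahr, a pseudogene for the other two). These are overlaps of whole gene spans, and whether any exons overlap was not checked. The strand setting is not stated, so whether reads are shared with these genes is unknown. Cyp1a1 overlaps none in GENCODE M21.

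Likeness over the 4 libraries was measured as the Euclidean distance between log2 values centred on each gene's mean, among genes within a factor of 2 of its level. The 3 nearest to Cyp1a1 were Ctsh (distance 0.16), Amacr (0.17) and Cenpv (0.18), out of 3952 candidates. Ctsh had 7.07 and 8.51 RPKM in Chd1KD and 12.5 and 15.5 RPKM in Control. Amacr had 16.3 and 18.4 RPKM in Chd1KD and 23.9 and 29.7 RPKM in Control, and Cenpv 14.6 and 16.6 RPKM in Chd1KD and 25.7 and 24.9 RPKM in Control. Cenpv passed the test (log2 fold change -0.67, limma, adjusted p = 0.035), while Ctsh and Amacr did not (limma, adjusted p = 0.062 and 0.084). All 3 were picked on the same 4 values shown here. Those nearest to Ahr were Oaz2, Nsrp1 and Ttc33, those nearest to Arnt were Exoc2, Arhgef40 and Sh3tc2, and those nearest to Tiparp were Prkcd, Atad5 and Prdm4, at distances of 0.0070 to 0.021, as a description over 4 libraries.

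Genes in and around the pathway were read from 8 lists of 119 genes, 79 of which were tested. Some lists hold relatives of the members or other xenobiotic receptors, so the pooled values are not those of the AhR pathway alone. None passed over all genes (limma), 14 of the 79 had an unadjusted p under 0.05 (17.7%, against 18.5% of all tested genes), and 41 were lower and 38 higher in Chd1KD, with a median log2 fold change of -0.01. Abcg2, from the list of other xenobiotic receptors, alone among them passed with a mean RPKM of at least 5, where 71 of 7705 tested genes did (limma). It alone also passed with a robust trend, where 92 of 10209 did (limma).

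**Figure D4:**
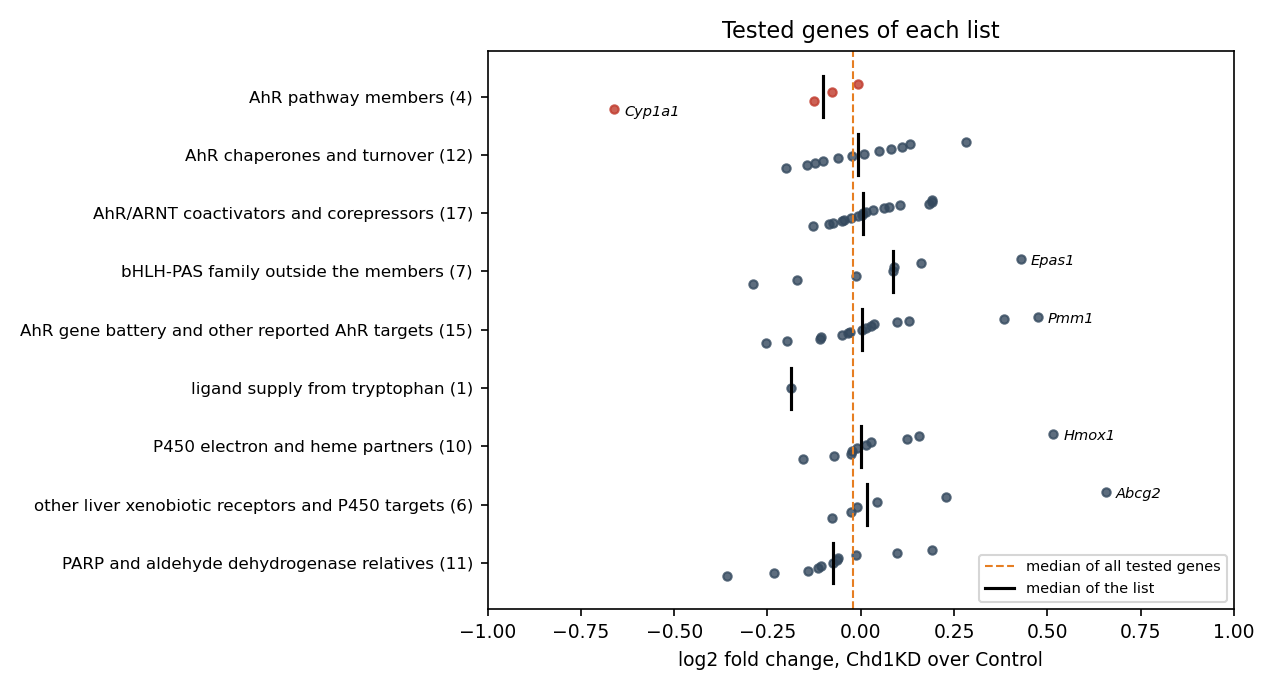
Log2 fold change (Chd1KD over Control, horizontal axis) of each tested gene in the members (red) and the 8 other lists (dark), with the number tested in brackets, the median of each list as a black bar and the median of all tested genes as a dashed line. The list medians lie between -0.19 and 0.09, and Cyp1a1 at -0.66 and Abcg2 at 0.66 are the farthest points on either side.

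The 12 chaperone and turnover genes of AhR were all expressed, 6 on either side of 0, with a median of -0.01. The chaperone Hsp90ab1 had 1341 and 1385 RPKM in Chd1KD and 1604 and 1529 RPKM in Control (log2 fold change -0.20, limma, adjusted p = 0.18). Cul4b, the cullin through which AhR acts as part of a ubiquitin ligase, had 15.5 and 15.1 RPKM in Chd1KD and 12.4 and 12.4 RPKM in Control, a log2 fold change of 0.28 (limma, adjusted p = 0.10). Stub1, a ubiquitin ligase that acts with HSP90, had a log2 fold change of -0.14. The groups did not overlap for Hsp90ab1, Cul4b and Stub1, named for the smallest p-values of the list, and none of them passed. Over the list 7 of 12 did not overlap, against 51.8% of all tested genes.

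Of 18 coactivators and corepressors 17 were tested, 10 higher and 7 lower in Chd1KD, with a median of 0.01. The smallest p-values were in Nfya, a CCAAT-box factor (26.3 ± 0.54 RPKM in Chd1KD and 22.9 ± 0.32 in Control, SD, n = 2 each), and Ncoa3, a p160 coactivator (15.6 ± 0.10 in Chd1KD and 13.7 ± 0.16 in Control). Their log2 fold changes were 0.19 and 0.18 (limma, adjusted p = 0.17 and 0.19). Smarca4, the BRG1 remodeler ATPase, had a log2 fold change of -0.13 (limma, adjusted p = 0.28).

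Of 16 other genes listed with the bHLH-PAS family, the PAS genes Per1, Per2 and Per3 included, 7 were tested and 6 were listed at 0 in every library. Arnt2, the close relative of Arnt, had 6.41 and 6.13 RPKM in Chd1KD and 7.83 and 7.93 RPKM in Control, a log2 fold change of -0.29 (limma, adjusted p = 0.12). Epas1, which encodes HIF-2alpha, had 5.01 and 4.73 RPKM in Chd1KD and 2.79 and 4.01 RPKM in Control. Its log2 fold change was 0.43 (limma, adjusted p = 0.18). It was 0.63 without Control replicate 2 and 0.23 without Control replicate 1. Hif1a, the main hypoxia factor, had a log2 fold change of 0.16 (limma, adjusted p = 0.27).

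Of 26 further reported AhR targets 15 were tested, 8 higher and 7 lower in Chd1KD, with a median of 0.002. Nqo1, a quinone reductase that is shared with the NRF2 response, had 2.06 and 2.46 RPKM in Chd1KD and 2.61 and 2.06 RPKM in Control. The groups overlapped. Ugt1a6a, Ugt1a6b and Ugt1a7c stayed at or under 0.53 RPKM and share exons, so reads may be split between them. Pmm1, a phosphomannomutase, had 48.4 and 40.8 RPKM in Chd1KD and 36.6 and 27.5 RPKM in Control. Its log2 fold change was 0.47 (limma, adjusted p = 0.16). It was 0.67 without Control replicate 1 and 0.27 without Control replicate 2. Cdkn1b, the CDK inhibitor p27, had a log2 fold change of -0.20, and Htatip2, an oxidoreductase-like protein, one of -0.26 (limma, adjusted p = 0.19 and 0.20). Without Control replicate 1 the Htatip2 value was -0.15.

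Genes that supply AhR ligands from tryptophan were mostly silent. Of 11, 1 was tested and 5 were listed at 0 in every library, among them the dioxygenases Tdo2 and Ido1. The tested one was Afmid, the kynurenine formamidase, with 4.80 and 3.81 RPKM in Chd1KD and 5.06 and 4.97 RPKM in Control (log2 fold change -0.19, limma, adjusted p = 0.38). The value was -0.052 without Chd1KD replicate 2 and -0.32 without Chd1KD replicate 1.

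All 10 electron and heme partners of the P450 enzymes were expressed, 5 on either side of 0. Por, the reductase that feeds electrons to CYP1 enzymes, had 53.0 and 56.2 RPKM in Chd1KD and 53.2 and 56.8 RPKM in Control. The groups overlapped. Cyb5b, an outer mitochondrial membrane cytochrome, had a log2 fold change of 0.16 (limma, adjusted p = 0.22), and Fdxr, a mitochondrial ferredoxin reductase, one of -0.16 (limma, adjusted p = 0.38), which was -0.098 without Chd1KD replicate 1. Hmox1, heme oxygenase, had 38.4 and 34.7 RPKM in Chd1KD and 36.1 and 17.6 RPKM in Control, so that 1 Control library carried its log2 fold change of 0.52 (limma, adjusted p = 0.37). Without Control replicate 1 the value was 1.01, and without Control replicate 2 it was 0.019.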

How the data were processed

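Poly(A) RNA of 2 Chd1KD and 2 Control libraries was sequenced; groups come from the sample titles. The authors deposited RPKM for 30582 RefSeq transcript rows, per the file headers. Per the submitters' processing notes, the tools included TopHat 1.4.1 and Cufflinks 1.3.0 and the build was mm10; the annotation release, strand setting and filters are not stated there. The files hold no read counts, so depth is unknown and no count model was used.

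Rows were named through the RefSeq table of GRCm38.p6 (30003 rows) and GENCODE M21 (180 rows), 399 stayed unnamed, and RPKM was summed per gene. Coordinates are those of the RefSeq table, 1-based. Genes averaging 1 RPKM or more entered limma 3.58.1 (R 4.3.3) as log2(RPKM + 1), with the variance trend on and no block, and with Benjamini-Hochberg adjustment over all 10209 genes; adjusted p under 0.05 was a call. Folds on this scale understate changes of low genes; ratios are of mean RPKM. The fit was checked on simulated data. Figures were drawn with matplotlib 3.10.9.

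Members and lists were chosen with earlier results of these data known. Named genes were the 8 members, Chd1, up to 4 called genes of each list or else the 3 of smallest p, and the 3 genes most like each tested member. Nqo1, the Ugt1a genes, Por, Tdo2 and Ido1 were added after their values were seen. Some genes of the lists are not reported here. Alternatives covered pseudocount, filter, scaling, variance model, replicate block, transcript choice, threshold and each library left out.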

Additional observations from a re-analysis of the deposited data

How the results depend on the processing

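Over all tested genes 47 passed. The number was 0 with no filter on low values beyond leaving out genes at 0 throughout (limma, where 2153 genes had unadjusted p under 0.05), 71 with a mean RPKM of at least 5, 6 without a variance trend, 92 with a robust trend, 12 when each gene was read from its top transcript, 205 at an adjusted p under 0.1, and 49 to 236 when 1 library was left out. Members that passed numbered 0, and 1 (Cyp1a1) at an adjusted p under 0.1. Genes of the 8 other lists that passed numbered 0, and 1 with a mean RPKM of at least 5, with a robust trend and at an adjusted p under 0.1, and 0 to 4 with 1 library left out. With the replicate number as a block, 325 genes passed over all, among them 1 member (Cyp1a1, limma, adjusted p = 0.016) and 2 genes of the other lists (Abcg2 and Pmm1). The numbers carry no stated pairing, and the deviations of replicate 1 from replicate 2 correlated between the groups at r = 0.22 across genes, which 2 pairs cannot settle. Of 400 single-gene results, 7 turned sign: Ahr under quantile normalization (0.018) and median centring (0.0040) and, with 1 library left out (range -0.050 to 0.038), without Control replicate 1 or Chd1KD replicate 2; Abcb1a without Control replicate 1 (range -0.058 to 0.51); and Abcc3 without Control replicate 2 or Chd1KD replicate 1 (range -0.23 to 0.079). The cause was not tested. Chd1 lost its call with no filter on low values (limma, adjusted p = 0.25). The 2 libraries per group and the unknown depth limit every value, most of all for members under 0.14 RPKM.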

Other observations

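Genes of the other xenobiotic receptors were largely silent in these cells. Of 15 receptor, P450 and transporter genes 6 were tested, 3 on either side of 0, and 6 were listed at 0 in every library, among them the pregnane X receptor Nr1i2 and the P450 genes Cyp2b10 and Cyp3a11. Abcg2, a drug efflux pump, had 14.0 and 12.8 RPKM in Chd1KD and 8.94 and 7.40 RPKM in Control. Its ratio was 1.64 and its log2 fold change 0.66 (SE 0.10, limma, adjusted p = 0.054), just short of the threshold. The log2 fold change was 0.78 without Control replicate 1 and 0.53 without Control replicate 2. It was 0.60 without Chd1KD replicate 1 and 0.72 without Chd1KD replicate 2. Abcg2 passed with a mean RPKM of at least 5 (limma, adjusted p = 0.038) and with a robust trend (limma, adjusted p = 0.034). Abcb1a, another efflux pump, had a log2 fold change of 0.23 (limma, adjusted p = 0.51). It was 0.51 without Control replicate 2 and turned to -0.06 without Control replicate 1. Abcc3 had 10.2 and 11.7 RPKM in Chd1KD and 10.3 and 13.04 RPKM in Control, and the groups overlapped.

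Of 11 PARP and aldehyde dehydrogenase relatives of Tiparp and Aldh3a1, 9 were lower and 2 higher in Chd1KD, with a median of -0.07 and no call; over all 10209 tested genes 5766 were lower. Parp12, an ADP-ribosyltransferase of the same CCCH zinc finger group as Tiparp, had 4.19 and 4.53 RPKM in Chd1KD and 6.09 and 5.65 RPKM in Control (log2 fold change -0.36, limma, adjusted p = 0.11). Aldh1a1, a retinaldehyde dehydrogenase, had 283.4 and 292.3 RPKM in Chd1KD and 249.2 and 254.5 RPKM in Control (log2 fold change 0.19, limma, adjusted p = 0.16), and Aldh3b1 had a log2 fold change of -0.23 (limma, adjusted p = 0.27). The groups did not overlap for these 3 genes, named for the smallest p-values of the list. Over the list 6 of 11 did not overlap, against 51.8% of all tested genes.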
